A study of Arabidopsis thaliana with 4 samples.

Results

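The peaks described here are the 6116 intervals of the Arabidopsis genome that were called as enriched with FLAG-tagged wild-type RGA, of 6621 intervals in the 2 peak lists of the series together. Every interval of the wild-type list was kept, with no further selection. Chromatin came from seedlings grown for 10 days on MS plates in continuous light, fixed with 1% formaldehyde for 20 min and taken up on FLAG-M2 agarose beads. The ChIP library is labelled as FLAG-tagged wild-type RGA in sly1 dP. Its control is labelled as the control of FRGA in sly1 dP, and the name of the deposited list gives that control as RGA sly1 dQ. The series has 2 further libraries, a FLAG-tagged mutant RGA (rga11) in sly1 dP and its control, which are not used here. The labels used here do not give the construct, its promoter, the number of lines or the meaning of dP and dQ. Each side of the call was 1 library, so no difference has a replicate check and no p-value is given for any comparison of peaks or genes. Intervals in brackets are 95% intervals that cover counting error only.

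RGA is a DELLA protein, one of the repressors of gibberellin signalling. Gibberellin leads to the destruction of DELLA proteins through the F-box protein SLY1, and sly1 mutants accumulate them. DELLA proteins have no DNA-binding domain of their own and reach chromatin through transcription factors, among them bHLH, BBX, AP2/ERF and homeobox proteins. The title of the series concerns a subdomain of DELLA proteins and its binding to histone H2A. A peak is a place where the ChIP library was called above its control, and need not be a sequence read by RGA itself. Whether RGA was recovered at each peak was not tested.

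Each peak has a summit, the position with most coverage, and a fold, which is ChIP coverage over the control level at the summit as the authors' peak caller gave it. The median fold was 2.37, and the range ran from 1.17 to 8.28. The median summit had 62 ChIP fragments over it and a control level of 23.6, both solved from the deposited values. This control level is 1.63 times the genome background of 14.5, which was taken as the lowest level solved at any listed peak. The control level was at most 2 times the background at 3868 summits (63.2%) and over 5 times the background at 406 summits (6.64%). Fold and control level are tied by the call itself, since a summit with a high control level passes at a lower fold. Among the 2658 summits with a control level of at most 1.5 times background the median fold was 2.65 and the lowest 1.99. Among the 151 summits over 10 times background the median fold was 1.49 and the lowest 1.17. The highest coverage of all was 5741 fragments at a summit inside AT2G08986 on chromosome 2, where the control level was 4551 and the fold only 1.26. This is also the peak whose deposited values could not be solved exactly.

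RGA peaks lay on all 5 nuclear chromosomes and followed the gene-rich arms. Chromosome 1 had 54.6 peaks per Mb (52.0 to 57.3), chromosome 5 had 51.6, chromosome 3 had 51.4, chromosome 4 had 50.8 and chromosome 2 had 46.2 (43.3 to 49.3), against 51.3 over the 5 together. The intervals of chromosomes 1 and 2 did not overlap, while those of the other 3 overlapped with both. Counted per coding gene the chromosomes lay closer together, at 23.2 peaks per 100 coding genes on chromosome 1 and 21.1 on chromosome 2. The peaks covered 1534 kb in all, or 1.29% of the span of the chromosomes.

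Within chromosomes the spread was far more uneven. Among 235 full windows of 500 kb, the 21 windows with under 25 coding genes had 31 summits, or 2.95 per Mb. The 20 windows with 25 to 74 coding genes had 14.0 summits per Mb, the 57 windows with 75 to 124 had 42.5, and the 137 windows with 125 or more had 66.7. Per gene the windows also differed: summits per 100 coding genes were 10.6, 14.2, 19.4 and 23.6 in the same order of windows. The share of summits with a control level over 5 times background was 25.8% in the poorest windows and 6.33% in the richest. Across the 235 windows, which share the 2 libraries, Spearman's rho between summits and coding genes was 0.76. It was 0.51 over the 182 windows with at least 100 coding genes, in which the number of summits still ranged from 6 to 59. In 7 windows there was no summit.

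The share of coding genes with a peak also fell away from the chromosome ends towards the interior. A coding gene is called marked when a summit lies inside it or within 1 kb of either end, and over the genome 6368 of 27444 coding genes, 23.2%, were marked. In the outer 1 Mb of the chromosome ends 969 of 2903 coding genes were marked, 33.4% (31.7 to 35.1). The share was 25.4% between 1 and 2 Mb, 24.7% between 2 and 4 Mb, 22.2% between 4 and 8 Mb and 18.6% (17.7 to 19.5) beyond 8 Mb. The median gene length was 2108 bp in the outer 1 Mb and 1992 bp beyond 8 Mb, and the median control level at summits was 1.77 and 1.63 times background. With summits of low control level alone, at most 2 times background, the shares were 21.7% in the outer 1 Mb and 12.5% beyond 8 Mb, against 15.7% of all coding genes. With the 1788 peaks of a −log10 q of 10 or more, the shares were 10.1% and 4.94%, against 6.54% of all coding genes. The 10 chromosome ends had between 49 summits, at the first end of chromosome 2, and 112, at the last end of chromosome 5, in their outer 1 Mb. Distance from the end was examined after the counts by window had been seen.

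**Figure D1:**
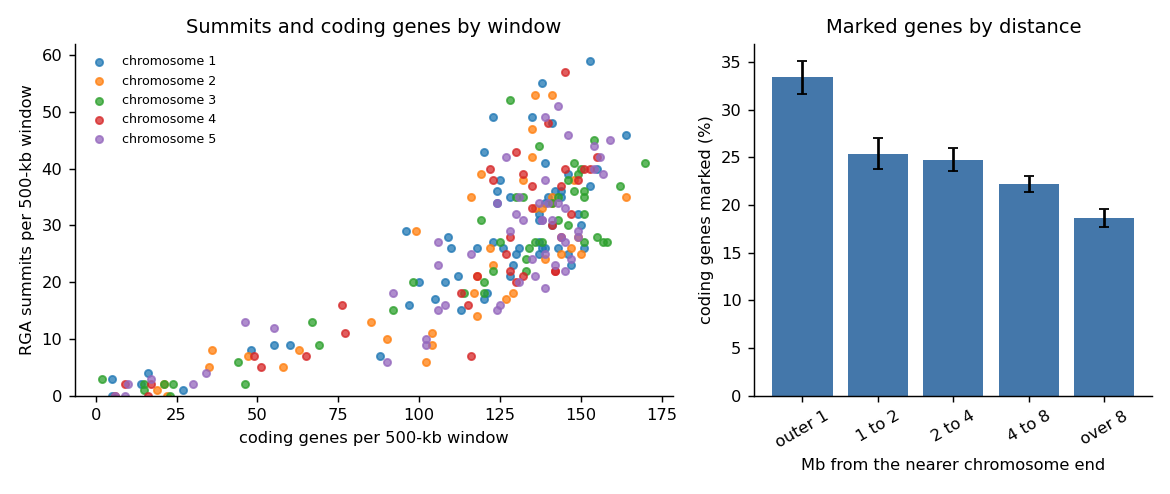
Left, RGA summits per 500-kb window (y axis) against coding genes in the window (x axis), 1 point per full window and 1 colour per chromosome. Right, percent of coding genes marked by distance from the nearer chromosome end in Mb, with exact 95% binomial intervals as bars. Windows with under 25 coding genes hold at most 4 summits, and the marked share is 33.4% in the outer 1 Mb and 18.6% beyond 8 Mb.

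The longest stretches without a summit lay where pseudogenes outnumber coding genes. On chromosome 5 the summits at positions 11324169 and 12859760 enclosed 1536 kb with no summit, 30 coding genes and 291 pseudogenes. On chromosome 3 the longest such stretch was 1023 kb, between 12670445 and 13693170, with 34 coding genes and 199 pseudogenes. Chromosome 4 had stretches of 964.5 kb and 920.1 kb, chromosome 1 one of 918.0 kb and chromosome 2 one of 698.4 kb, with 11 to 35 coding genes and 123 to 185 pseudogenes in each. Over the genome 102 of 3917 pseudogenes not classed as transcribed were marked, 2.60% (2.13 to 3.15), the lowest share of any class of gene listed. Transcribed pseudogenes had 69 of 926 marked, 7.45% (5.84 to 9.34). The counts of pseudogenes in the stretches above take in both classes. How far reads can be placed uniquely in these stretches was not tested.

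Neighbouring summits were a median of 9470 bp apart, against a mean of 19458 bp. The central 50% of the 6111 distances ran from 3138 bp to 22698 bp. The closest summits were 193 bp apart, and 132 pairs (2.16%) lay under 500 bp apart. In all, 544 neighbouring pairs (8.90%, 8.20 to 9.64) lay within 1 kb and 2045 (33.5%) within 5 kb, while 107 (1.75%) were over 100 kb apart. A summit therefore had a close neighbour at 1017 of 6116 peaks, or 16.6%. Of the 544 close pairs, 258 (47.4%) had both summits inside the same coding gene and 472 (86.8%) had both inside or within 1 kb of the same gene. Both summits lay outside coding genes in 98 pairs (18.0%). Peaks with a close neighbour had a median fold of 2.30 and a median control level of 1.97 times background, against 2.39 and 1.63 for peaks without one.

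Close neighbours chained into 473 runs in which each summit was within 1 kb of the next: 410 runs of 2, 55 of 3 and 8 of 4, the longest seen. The run at CBF1, a transcription factor of the cold response, spanned 2377 bp, with folds of 3.19, 1.99, 3.66 and 3.23 in order along chromosome 4. The 2 inner summits lay inside CBF1 and the 2 outer ones within 1 kb of it. The run at PIL6, better known as PIF5, a bHLH factor of light and growth responses, spanned 1839 bp with folds of 2.08, 3.25, 3.94 and 2.21, and its 2 strongest summits lay outside coding genes. The run inside HAI1, a PP2C phosphatase of abscisic acid signalling, spanned 1993 bp with folds of 2.11, 1.87, 1.84 and 2.69. The other 5 runs of 4 lay at AT1G79630 with AT1G79640, at AT3G14067 with CAX9, at AT4G01870, at AT5G13100 with G6PD2 and at GILP with AT5G13200.

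**Figure D2:**
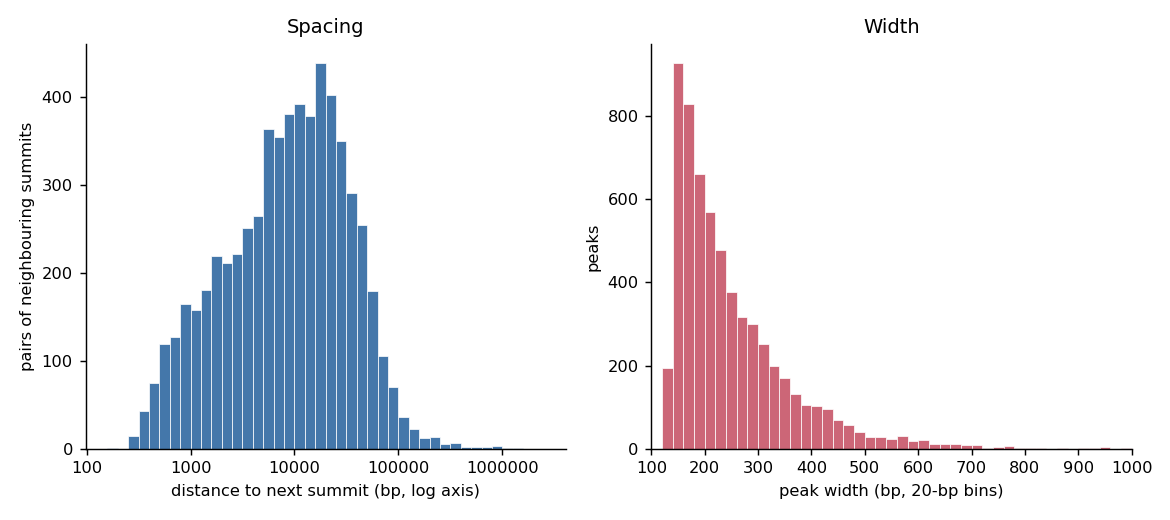
Left, number of neighbouring summit pairs by the distance between them in bp, on a log axis. Right, number of peaks by width in bp, in bins of 20 bp up to 1000 bp; the 10 wider peaks are not drawn. The median distance is 9470 bp and the median width 215 bp, and both distributions have a long upper tail.

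Most peaks were narrow. The median width was 215 bp, 2609 peaks (42.7%) were under 200 bp, the narrowest was 136 bp, 242 (3.96%) were over 500 bp and 10 were over 1000 bp. Wide peaks were found inside genes more often, and at higher control levels. With peaks ranked by width into 4 equal classes, in the widest class, 295 bp or more, 76.7% of summits (74.5 to 78.8) lay inside a coding gene, against 57.8% (55.3 to 60.3) in the narrowest class. The median control level was 2.18 times background in the widest class and 1.43 in the narrowest, and the median fold was 2.26 and 2.39. Across all peaks of these libraries, Spearman's rho of width was 0.33 with ChIP fragments, 0.31 with control level and -0.10 with fold.

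All 10 of the widest peaks had their summit inside a coding gene. The widest, 1920 bp, covered chr2:13554933-13556852 in SOBIR1, a receptor-like kinase that works with receptor-like proteins in immunity, with 357 ChIP fragments against a control level of 153.5 and a fold of 2.32. The next, 1902 bp at chr2:255437-257338, lay in the RGA gene itself (AT2G01570, listed as RGA1), with 191 ChIP fragments against a control level of 86.6 and a fold of 2.19. Fragments of the tagged copy of RGA and of the gene at its own place cannot be told apart in these lists. NIA2, the main nitrate reductase, had a peak of 1461 bp with 167 fragments against 93.5 and a fold of 1.78. The remaining 7 were in AT3G25700, ADT4, RDUF2, CNI1, PUP14, PUM21 and CZF1, with folds from 1.45 to 2.49. Control levels at 8 of the 10 were over 4 times background, and reached 25.4 times at PUP14; AT3G25700 at 2.65 times and PUM21 at 1.63 times were lower.

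Most summits lay inside coding genes, but most of the strong ones did not. Of 6116 summits, 3992 (65.3%, 64.1 to 66.5) lay inside a coding gene, 1377 (22.5%) outside but within 1 kb of one, and 747 (12.2%) farther away. The share inside was 43.9% among the peaks of −log10 q of 10 or more and 47.4% in the upper 50% by fold. The part of the genome that lies inside coding genes was not computed. No preference for or against genes is therefore read from these shares. Median folds were 2.22 inside, 2.78 within 1 kb and 2.87 beyond 1 kb. The median number of ChIP fragments was nearly the same, at 63, 61 and 62, while the control level was 1.84, 1.43 and 1.36 times background. With peaks ranked by fold into 10 equal classes, 24.02% of the class of highest fold lay inside a coding gene and 31.1% beyond 1 kb, against 91.2% and 3.601% of the class of lowest fold. The share inside was lower in each class than in the one below it. Of the 100 peaks with the highest fold, 20 lay inside coding genes, 39 within 1 kb and 41 beyond. The table of genes has no strand, so the region before a gene and the region after it were not told apart.

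The strongest peaks by q lay near genes of varied function. The highest −log10 q, 104.5, belonged to chr3:21678813-21679058, just over 1 kb from TTL4, with 300 ChIP fragments against a control level of 59.0 and a fold of 5.01. The next 3 also had no coding gene within 1 kb, with 265 to 292 fragments and folds from 4.83 to 5.30. Their nearest coding genes, AT1G64380, DAYSLEEPER and AT5G51560, lay 3644, 2535 and 2305 bp away. A peak within 1 kb of PLS, which encodes the short POLARIS peptide of root growth, had a −log10 q of 88.0, 234 fragments and a fold of 5.43. Peaks within 1 kb of BRG3, a RING protein related to BOI, and of TPS7, of the trehalose-phosphate synthase family, had −log10 q of 84.7 and 81.0. By fold, the first was within 1 kb of MYB74, an R2R3-MYB factor, with 127 fragments against a control level of 14.5 and a fold of 8.28. Next came peaks whose nearest coding genes were AT1G56630 at 7.62, AT5G11330 at 7.44, AT1G09260 at 7.32 and KNAT3, a KNOX homeobox gene, at 6.73. Their summits lay 1095, 1139, 1405 and 4955 bp from these genes, in that order. Of the first 5 by fold, MYB74 alone was within 1 kb of its peak. GATL6, a glycosyltransferase-like gene of wall polysaccharides, held its summit inside at a fold of 6.68.

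Only 59 summits (0.96%) were over 5 kb from any coding gene. Those of highest fold lay nearest to AT2G15170 at 4.93, to AT3G26539 at 4.74 and to GNC, a GATA factor of greening, at 4.46. At the other extreme, peaks with most fragments had little enrichment. ERF4 had 1074 fragments against a control level of 794.9 and a fold of 1.35, DIC2 had 1050 against 646.4 and 1.62, and AGP1 had 922 against 634.5 and 1.45. Of the 100 peaks with most ChIP fragments, 94 lay inside coding genes.

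Single summits were the rule: 5275 coding genes had 1 summit inside or within 1 kb, 909 had 2, 161 had 3, 21 had 4 and 2 had 5. The 1093 genes with 2 or more are 3.98% of all coding genes. Counting only summits inside the gene, 392 genes had 2 or more and 51 had 3 or more. A summit can count for more than 1 gene: 3270 summits (53.5%) had 1 coding gene within 1 kb, 1903 (31.1%) had 2 and 190 (3.11%) had 3. Length mattered up to a point. The marked share was 12.4% in the shortest of 10 equal classes of coding genes by length (median 528 bp), 22.3% in the fourth (median 1646 bp) and 27.4% in the longest (median 5276 bp). The share with 2 or more summits was 1.02% in the shortest class, 4.63% in the fourth and 4.70% in the longest, and it stayed between 4.63% and 4.92% from the fourth class on.

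Genes that held several summits inside were a median of 2514 bp long, against 2252 bp for those that held 1 and 2043 bp for those that held none. Their neighbouring summits were a median of 896.5 bp apart. Summits that shared a gene had a median fold of 2.11 and a median control level of 2.31 times background, against 2.24 and 1.77 times for single ones. The control level was over 5 times background at 17.3% of summits that shared a gene and at 7.32% of single ones. The part of the control level in these counts was not tested.

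The genes with most summits differed in control level. With 4 or more summits there were 23 genes, and the 10 compared first are both with 5 and, by highest fold, 8 of the 21 with 4. CPK28, a calcium-dependent kinase gene with 4 summits, a best fold of 2.28 and a control level of 14.2 times background at that summit, is among the other 13. CAT3, a catalase gene of 3569 bp, had 5 summits, 4 inside, with folds of 2.78, 4.10, 1.96, 1.66 and 2.21 along chromosome 1 and control levels from 1.00 to 3.81 times background. ACA1, a calcium pump gene of 4676 bp, also had 5, all inside, but with folds from 1.52 to 1.98 and control levels from 6.53 to 9.05 times background. PEN3, an ABC transporter of pathogen defence, resembled ACA1, with 4 summits inside at folds from 1.42 to 1.71 and control levels from 6.97 to 14.5 times background. KUP6, a potassium transporter gene, had 1 summit just outside at a fold of 4.21 and 3 inside at 1.85, 2.49 and 2.39. AT4G32480 had folds of 5.18, 4.55, 2.01 and 2.55, of which the 2.01 lay inside. AT1G79630 reached 5.01 at a summit 612 bp outside it, which lay inside the neighbouring gene AT1G79640, above 2.29 to 2.91 at its summits inside. AT1G58602 reached 4.17 at a summit outside the gene, above 2.04 to 2.07 at its summits inside. In CBF1 and AT3G44610 the highest fold was inside the gene, at 3.66 and 3.64.

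**Figure D3:**
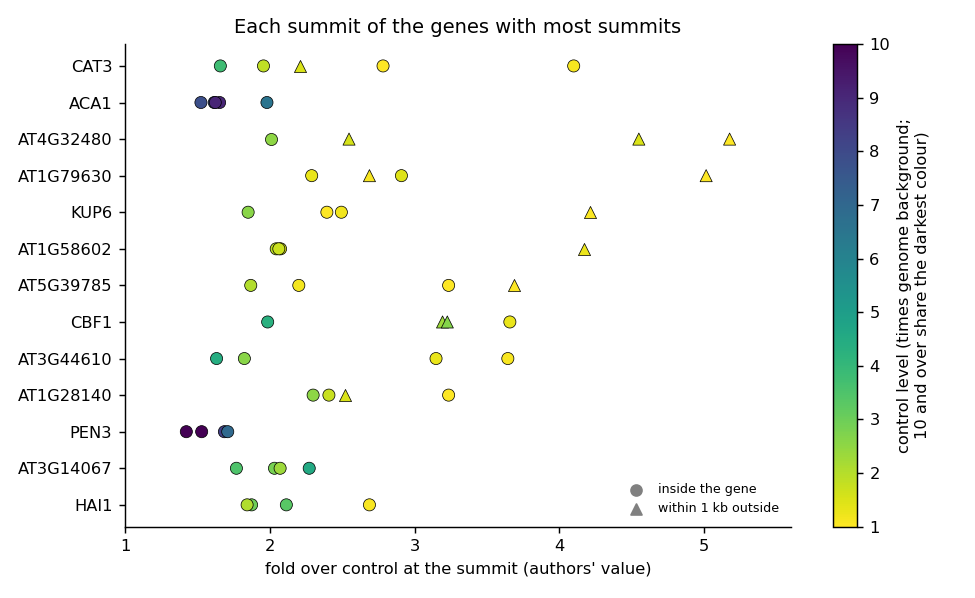
Every summit of 10 coding genes with most summits (both with 5, then those with 4 in order of their highest fold), and of PEN3, AT3G14067 and HAI1, which also hold 4 inside; the x axis is the fold over control, circles are summits inside the gene, triangles summits within 1 kb outside, and colour is the control level in multiples of the genome background. ACA1 and PEN3 have all folds under 2 at control levels of over 6 times background, while CAT3 reaches 4.10 at a low control level.

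In windows of 100 kb the median was 5 summits, 148 of 1193 windows had 10 or more and 140 (11.7%) had none. The densest, positions 27400001 to 27500000 of chromosome 1, had 21 summits with folds from 1.55 to 3.103, and 20 of its 32 coding genes were marked. Among them were NF-YA3, a nuclear factor Y subunit, at a best fold of 3.103, the ABA receptor gene PYL3 at 2.23, TIR at 2.23 and PEPR1, the receptor of plant elicitor peptides, at 1.69. AT1G72910 and AT1G72940, neighbours of TIR, had 3 summits each. The next window, 18000001 to 18100000 of chromosome 4, had 18 summits and 21 of 30 coding genes marked, with MYB4, a repressor of phenylpropanoid genes, at 3.69, VAB2 at 3.17, the cold shock domain gene GRP2 at 2.61 and KAK at 2.36. The third, 100001 to 200000 of chromosome 1, had 17 summits and 16 of 33 coding genes marked, among them LEA14 at 2.52, the ethylene synthesis gene ACS2 at 2.397 and AN at 1.93. The highest fold in these windows was 4.48, in the third, and 1 or 2 summits in each had a control level over 5 times background.

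The neighbouring genes were sorted into 26 lists of functions other than hormone pathways, in which 733 of 800 names matched the gene table, and into 40 families by symbol. In 19 lists the marked share was above the 23.2% of all coding genes, and in 7 it was below. Weighted to each list's gene lengths, the share of all coding genes ran from 19.8% to 26.8%, and 17 lists were above their own value. The interval lay wholly above 23.2% in 6 lists, and in 5 of them wholly above the list's own length-weighted share; the exception was shoot meristem and leaf development. With the peaks of −log10 q of 10 or more, 22 of the 26 lists were above the 6.54% of all coding genes, and with summits of low control level, 19 were above the 15.7%. These are counts over lists that were chosen with earlier results of these data known, and they are given as a description.

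Immunity genes shared the highest share among the lists with starch genes, 20 of 35 (57.1%, 39.4 to 73.7). Of the 20, 7 had their best summit at over 5 times the background of the control, against 333 of all 6368 marked coding genes. RIN4, a guarded regulator of defence, had a summit inside at a fold of 4.21 with 64 ChIP fragments at the background level of the control. EDS5, the salicylate transporter, had 3.17, EFR, the receptor of bacterial EF-Tu, 2.98 and PR1, a salicylate marker, 2.91. The respiratory burst oxidase gene RBOHD had 3 summits inside, the strongest with 495 fragments at 20.1 times background and a fold of 1.70. MPK3, a kinase of the immune cascade, had 2 inside, with 270 fragments at 10.4 times background and a fold of 1.79. At low control level 9 of 35 (25.7%) remained marked, against 15.7% of all coding genes. CERK1, PBL1 and RBOHF were not marked.

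Genes of starch and chloroplast carbon metabolism were marked at 16 of 28 (57.1%, 37.2 to 75.5), at lower control levels, with a median of 1.60 times background against 2.69 for the immunity genes. RBCS2B, a small subunit gene of Rubisco, had a summit within 1 kb at a fold of 5.11 with 98 fragments. GBSS1, granule-bound starch synthase, had 3.75 and ISA1, a starch debranching enzyme, 3.49, both within 1 kb outside. CT-BMY, a chloroplast beta-amylase, alone had more than 1 summit, with 2 inside, a best fold of 1.62 and a control level of 6.60 times background. At low control level 10 of 28 (35.7%) were marked, against 15.7% of all coding genes. PGM1, ADG1 and APL2, of the early steps of starch synthesis, had no summit inside or within 1 kb, while APL1 at 2.06 and APL3 at 2.585, large subunits of the same enzyme as APL2, were marked. RBCS genes lie in near-identical copies, and the authors' mapping could place their reads at either.

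Genes of chlorophyll and plastid biogenesis were marked at 14 of 31 (45.2%, 27.3 to 64.0), 11 of them at low control level. GLK1, a transcription factor of chloroplast development, had 2 summits and a best fold of 5.08 with 129 fragments, and its partner GLK2 had 1 inside at 2.395. The sigma factor gene SIG6 had 2.73 and CHLM, a methyltransferase of chlorophyll synthesis, 2.72. Of the early steps, GSA1 at 2.46, HEMB1 at 2.71 with 2 summits and HEMC at 2.17 were marked, while HEMA1 and the magnesium chelatase subunit genes GUN5 and CHLI1 were not.

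Light-harvesting genes had the highest share of any family, 16 of 21 (76.2%, 52.8 to 91.8). Of the 16, 6 had their best summit at over 5 times background, against 333 of all 6368 marked coding genes. The median control level of the 16 was 4.32 times background and their median fold 1.95, against 1.63 and 2.37 over all marked coding genes. At CAB1 469 fragments stood against 24.8 times background, for a fold of 1.31. LHCB4.3 at 2.96, LHCA3 at 2.54 and LHCB2.2 at 2.45 had the highest folds. At low control level 4 of 21 (19.0%) were marked, against 15.7% of all coding genes. CAB1, CAB2 and CAB3 are close copies, so reads may be shared among them.

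Nitrogen genes were marked at 14 of 31 (45.2%), and 8 of them had 2 or more summits, against 17.2% of all marked coding genes. NRT1.1, the dual-affinity nitrate transporter (also NPF6.3), had 3 summits inside with a best fold of 4.17. GLU1, ferredoxin-dependent glutamate synthase, had 3 summits with 1 of them inside, and its strongest, at 3.43, lay 850 bp outside. The ammonium transporter AMT1;2 had 3.01. NIA1 and NIA2, the nitrate reductases, were marked at folds of 1.87 and 1.78 and control levels of 3.19 and 6.47 times background. Of the high-affinity nitrate transporters, NRT2.1, NRT2.2 and NRT2.4 were not marked, while NRT2.7 had 2 summits inside with a best fold of 1.83 at 4.76 times background.

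Ion and water transport had 14 of 31 genes marked (45.2%), 7 with several summits, against 17.2% of all marked coding genes, and 12 at low control level. NHX2, a vacuolar sodium and potassium exchanger, had a fold of 4.57 inside the gene. The plasma membrane aquaporins PIP1A and PIP3 had 4.51 and 4.28, each with 2 summits, both outside the gene. Over the whole aquaporin family 15 of 34 (44.1%, 27.2 to 62.1) were marked, all 15 at low control level. The root potassium channel AKT1, the guard cell channel KAT1 and the proton pump AHA3 were not marked.

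Regulators of shoot meristem and leaf development had 12 of 29 genes marked (41.4%, 23.5 to 61.1), all 12 at low control level. AN3, a coactivator of leaf cell proliferation, had 4.01 inside the gene, YAB1, a factor of the lower leaf side, 3.69 with 2 summits inside, and WOX1, of blade outgrowth, 3.50. In the stomatal list 7 of 20 were marked, with MUTE at 3.34, ICE1 at 3.24 and ERL1 at 3.12. In the vascular list 9 of 25 were marked, with NST2 at 3.301 and VND2 at 2.92, both NAC factors of secondary walls. The interval of these 2 lists took in 23.2%.

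Cytoskeleton genes were marked at 12 of 35 (34.3%), with ACT11, an actin, at 3.54, TUB7, a tubulin, at 3.29 and MAP65-1, which bundles microtubules, at 3.25. Calcium signalling had 12 of 32 (37.5%), of which 6 at low control level, with the vacuolar exchanger CAX1 at 3.22. Autophagy and proteolysis had 9 of 27 (33.3%), all at low control level, with ATG8I at 4.40, ATG8G at 4.14 and ATG11 at 3.77. Iron and metal genes had 9 of 31 (29.0%), with the vacuolar exporter NRAMP3 at 4.47 and YSL1 at 4.18. Cell cycle genes had 9 of 33 (27.3%), with the inhibitors KRP7 at 3.40 and KRP1 at 3.37 and CYCD1;1 at 3.39. Histone genes had 6 of 21 (28.6%), with the H2A genes HTA8 at 3.56, HTA13 at 3.44 and HTA2 at 2.69 in the lead. These shares were within counting error of 23.2% for each list.

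The lists with the smallest shares were pollen and egg cell genes, 3 of 30 (10.0%, 2.11 to 26.5), sulfur and glucosinolate genes, 3 of 25 (12.0%), and wax, cutin and suberin genes, 5 of 31 (16.1%). Among the few marked were APR2 of sulfate reduction at 3.16, SULTR1;2 of sulfate uptake at 3.08, and CER6 of wax synthesis at 3.49. Chromatin regulators had 7 of 33 (21.2%), with the DNA methyltransferase CMT3 at 3.11 and CHR11, a chromatin remodeller, at 2.46. Cytosolic ribosomal proteins had 4 of 21 (19.0%), with RPL23AB at 2.65. No list had an interval wholly below 23.2%.

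**Figure D4:**
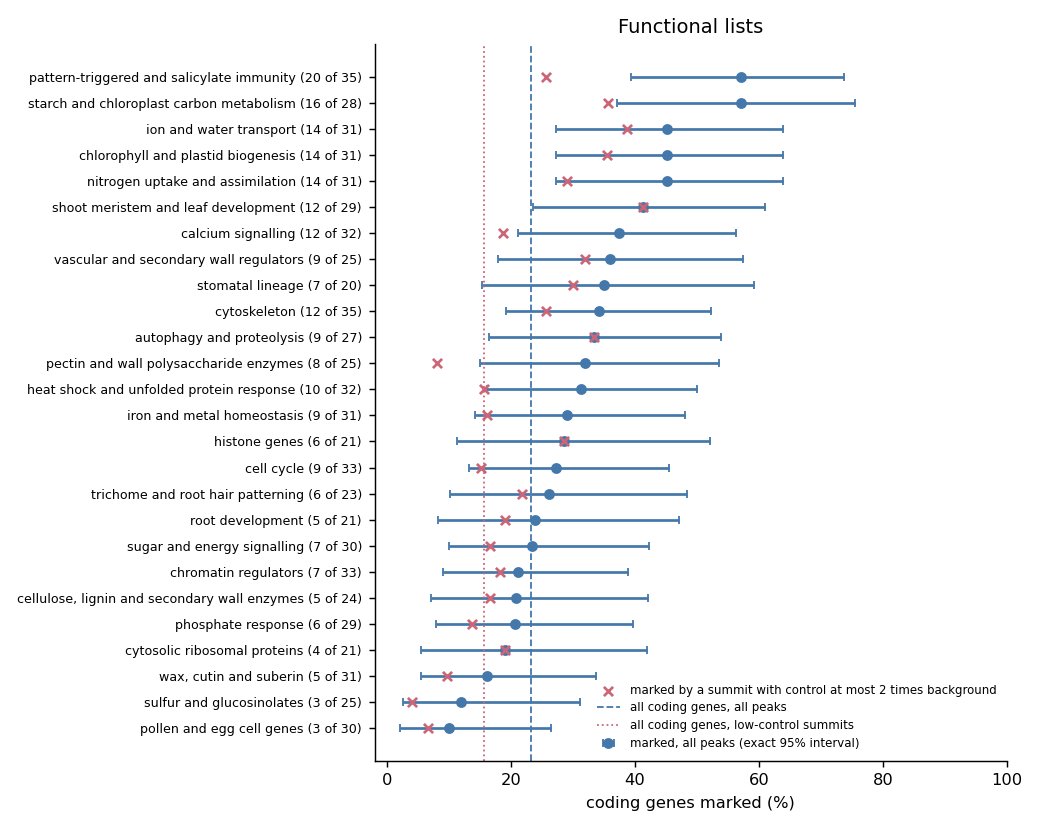
Percent of coding genes marked in each of 26 functional lists (x axis); circles are all peaks with exact 95% binomial intervals, crosses are summits with a control level of at most 2 times background, and vertical lines are all coding genes (23.2%, dashed, and 15.7%, dotted). Immunity and starch genes lead at 57.1%, with crosses at 25.7% and 35.7%, while shoot meristem and leaf development has both at 41.4%.

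Among families of transcription factors the shares differed widely. BBX proteins, B-box zinc fingers of light and flowering responses, had 19 of 31 marked (61.3%, 42.2 to 78.2), 13 of them at low control level and 9 with several summits, against 17.2% of all marked coding genes. BBX28 had 3 summits and a best fold of 3.89, COL5 had 3.75 and BBX14 had 3 summits and 3.61. AP2/ERF factors had 35 of 59 (59.3%, 45.8 to 71.9), 13 with several summits, with DREB1A at 4.03, ERF12 at 3.90 and RAP2.12 at 3.86; 15 were marked at low control level. WRKY factors had 27 of 72 (37.5%, 26.4 to 49.7), with WRKY47 at 4.70, ZAP1 at 4.53 and WRKY27 at 3.94. Homeobox factors had 25 of 73 (34.2%, 23.5 to 46.3), with PHB, a leaf polarity factor, at 4.40 and BLH4 at 4.20. At low control level 15 WRKY factors (20.8%) and 14 homeobox factors (19.2%) were marked, against 15.7% of all coding genes. NAC factors had 31 of 100 (31.0%), with NAC1 at 4.42, NAC047 at 4.40 and LOV1 at 4.34. The bHLH factors found by symbol had 5 of 22 (22.7%, 7.82 to 45.4), close to the 23.2% of all coding genes. The 22 leave out bHLH genes with symbols of another form, such as the marked PIL6. Their share therefore does not stand for the whole bHLH family. MYB factors as a family had 19 of 125 (15.2%, 9.41 to 22.7), although MYB74 holds the highest fold of all peaks. MADS-box factors had the smallest share among these, 8 of 95 (8.42%, 3.71 to 15.9), with AGL94 at 3.88.

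Other families also lay apart from 23.2% by their intervals. Above it were UDP-glycosyltransferases, 26 of 64 (40.6%), cysteine-rich receptor kinases, 18 of 42 (42.9%), plant U-box ligases, 11 of 23 (47.8%), and RING ligases of the ATL family, 7 of 13 (53.8%, 25.1 to 80.8). The receptor kinase CRK40 had a fold of 3.95, GT72B1 3.39 and PUB45 3.58. Of the 11 marked U-box genes 4 were marked at low control level, against 15 of the 18 receptor kinases and 0 of the 7 ATL genes, of which ATL8 led at 2.65. Below it were heat shock proteins, 2 of 32 (6.25%), and small cysteine-rich peptides of the S-locus and self-incompatibility kind, 0 of 29, for which an interval up to 11.9% remains. Plant defensins and their relatives had 11 of 88 (12.5%); both peptide families are made of short genes, and weighted to their lengths all coding genes give 13.9% and 14.4%. Cytochrome P450s, the largest family at 234, had 58 marked (24.8%), close to all coding genes, with CYP86C3 at 5.71. In all, 27 of 40 families had a share above 23.2%, 10 with the interval wholly above and 5 wholly below. Against the share weighted to their own lengths the counts were also 10 and 5, with the auxin-induced SAUR genes (23 of 80, 28.8%, against 16.5%) in place of the homeobox factors and the ABC transporters (21 of 127, 16.5%, against 26.65%) in place of the defensins. Neighbouring members of a family, such as SAUR15 and AT4G38840, can be marked by the same summit, which the intervals do not allow for.

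**Figure D5:**
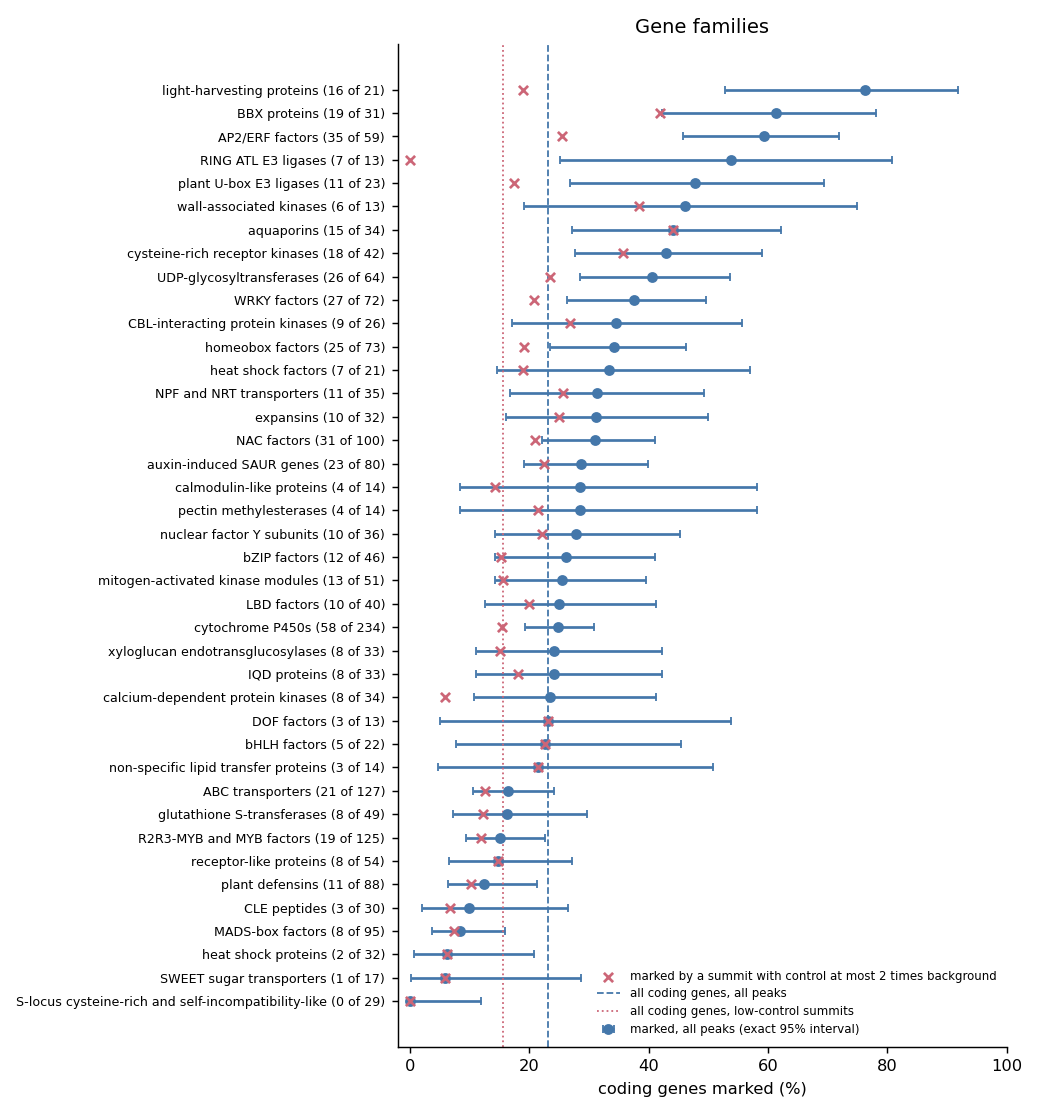
Percent of coding genes marked in each of 40 families (x axis), drawn as for the functional lists, with the number marked of the number in the family after each name. Light-harvesting proteins lead at 76.2% with a cross at 19.0%, BBX proteins have 61.3% with a cross at 41.9%, and S-locus cysteine-rich and self-incompatibility-like genes have 0.

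Genes that make no protein were marked less often than coding genes of all lengths together. Long noncoding RNAs had 629 of 3480 marked (18.1%), 168 of them by a summit with no coding gene within 1 kb. Transfer RNAs had 90 of 625 (14.4%) and microRNAs 20 of 326 (6.13%, 3.79 to 9.32); none of the microRNA genes had a summit inside. At 7 microRNA genes no coding gene lay within 1 kb of the summit. MIR404 had a fold of 4.66, MIR163, which acts on methyltransferase transcripts, 3.90, MIR156c, which acts on SPL factors of vegetative phase change, 3.24, MIR166a, which acts on class III homeobox transcripts, 2.97, and MIR396b, which acts on GRF factors, 2.54. The summit at MIR854b, at 7.62 times background and a fold of 1.44, is the last one before the longest empty stretch of chromosome 5. These genes are short. Median lengths were 343 bp for long noncoding RNAs, 144.5 bp for microRNAs and 73 bp for transfer RNAs, against 2078 bp for coding genes. The shares are therefore not comparable per length. In the shortest class of coding genes, with a median of 528 bp, 12.4% were marked. That share is below those of long noncoding and transfer RNAs and above that of microRNAs.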

How the data were processed

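Per the submitters' processing notes, the tools were Trimmomatic 0.39, Bowtie2 2.4.5, MACS2 2.2.7.1 and deepTools 3.1.3, with genome build TAIR10. The values deposited for a peak are a fold, which is a ratio of coverage in the ChIP library to control with a pseudocount of 1, then −log10 p, −log10 q and a score left unused here. The summit offset was deposited by the authors as well. Peak numbers run to 7873, so 6116 peaks are part of those numbered; the sources used here do not give the step behind this. Read totals were not analysed here.

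The deposited fold and −log10 p were solved together for ChIP fragments and control level, and for 6115 of 6116 peaks (99.98%) the solution matched the −log10 p to 0.001. The solving step was tested on simulated data. The genome background was not given by the authors and was taken as the lowest control level solved, at which 675 peaks lay. Summits were set against RefSeq genes on TAIR10.1, whose nuclear chromosomes were taken to share coordinates with TAIR10; gene names and symbols are those of RefSeq. A coding gene was marked by a summit inside it or within 1 kb. Shares have exact Clopper-Pearson 95% intervals and rates exact Poisson intervals, which take summits or genes as independent. No test was run, since each group had 1 library.

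Genes named are the 10 with most summits, ties taken by highest fold, those at the 10 highest −log10 q, widest and highest-fold peaks, the 3 of highest fold in each list or family of at least 8 genes, unmarked members in list order, and genes with a symbol in the 3 densest windows. Others, such as runs of 4, peaks with most fragments, microRNAs, RBOHD, MPK3, GLK2, CAB1, NIA1, NIA2, and the genes holding 4 summits inside, were chosen after their values were seen. The members and lists were chosen with earlier results of these data known. Families rest on symbols, so genes without one, or with a symbol of another form, are missed. By hand, 26 genes of another kind that share a symbol were removed from 10 families, and others may remain. Alternatives were stricter peak lists by q, fold or control level, other flanks, and other windows. Python 3.11.15, numpy 2.4.6, pandas 2.3.3, scipy 1.17.1 and matplotlib 3.10.9 were used.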

Additional observations from a re-analysis of the deposited data

How the results depend on the processing

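No paired analysis was possible because each group had 1 library; for the same reason no replicate could be left out. The planned motif search at a −log10 q of 10 or more was not run, as no sequence was used here. Of 64 recomputed values, 27 kept within 1.5 times a count or within the interval of a share or median. The share of summits inside genes fell under 50% in the 2 settings that keep strong peaks alone. The number of lists above all coding genes, 19 of 26, ran from 17 to 22 over 5 stricter peak lists and 4 other ways of joining summits to genes. A shorter list of peaks spaces summits more widely and marks fewer genes by construction; the cause of the other moves was not tested.

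At a −log10 q of 5 or more (4243 peaks), 592 genes had several summits, median spacing was 13816 bp, 6.89% of summits were within 1 kb of the next, median width was 222 bp, 59.2% of summits were inside genes, and the densest window had 13. At 10 or more (1788 peaks), 1796 genes were marked and 140 had several summits, spacing was 33440 bp, 4.94% were within 1 kb, width was 229.5 bp, 43.9% were inside genes, the densest window had 9, the ratio of peaks per Mb on chromosome 1 to chromosome 2 was 1.07 against 1.18, and the marked share in the outer 1 Mb over that beyond 8 Mb was 2.05 against 1.79. In the upper 50% by fold, the values were 3217 genes marked, 275 with several, 20010 bp, 4.44%, 207 bp, 47.4% inside and 11 in the densest window. With the control at most 5 times background they were 10287 bp, 7.92%, 211 bp and 63.3% inside. At most 2 times background, 424 genes had several summits, with 16630 bp, 4.92%, 197 bp, 58.1% inside and 13 in the densest window.

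With summits inside the gene alone 3628 genes were marked and 392 had several. With a flank of 2 kb 1957 had several, and with the nearest gene alone 676. Windows of 50 kb gave 12 summits in the densest. Of 234 recomputed list shares, 194 stayed within the interval of the share. The ratio by distance from the chromosome end was added after the data were seen. The lowest coverage of any listed summit was 33 fragments; what was missed at this depth was not tested.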
